A study of Mus musculus with 10 samples.

Results

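The expression of 9 chemokine receptor genes was followed in regulatory T cells (Treg cells) taken from tumours and from lymph nodes: Ccr1, Ccr2, Ccr4, Ccr7, Ccr8, Cxcr3, Cxcr4, Cxcr6 and Cx3cr1. They were taken by gene symbol from a count table of 55291 genes, and all 9 were among the 20068 genes that passed the filter on low counts. The study compared 3 groups of bulk RNA-seq libraries. Hepa1-6 libraries (4) came from Treg cells of subcutaneous Hepa1-6 tumours, which grow from a mouse hepatoma line, at day 23 after injection. E.G7 libraries (2) came from Treg cells of subcutaneous E.G7 tumours, a T cell lymphoma line derived from EL4 that carries chicken ovalbumin, at day 21. LN libraries (4) came from lymph node Treg cells of untreated mice without a tumour. The mice behind all 10 libraries, controls included, were Foxp3YFP-cre mice. They make a fusion of YFP and Cre from the Foxp3 gene, the gene of the transcription factor that defines Treg cells. Tumour Treg cells were sorted from isolated CD4+ T cells of tumour-infiltrating lymphocyte preparations, and the sources used here give neither the markers of the gate nor the age or sex of the mice. Each tumour type was sampled at its own day, so tumour type and day cannot be told apart, and both tumour groups also differ from the LN group in tissue. Nothing in the labels says that the libraries of a group came from separate mice, so a p-value here reflects only how the libraries vary, and that variation may be technical.

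Chemokine receptors are G protein-coupled receptors that sense gradients of small secreted proteins, the chemokines, and steer a leukocyte towards their source. In lymph nodes, Ccr7 binds Ccl19 and Ccl21 and holds T cells in the T cell zone, while Ccr4, Ccr8, Cxcr3 and Cxcr6 are typical of activated Treg cells that enter inflamed tissue. Ccr1, Ccr2 and Cx3cr1 are best known from monocytes and macrophages, and T cells of inflamed tissue can also make Ccr2, Ccr1 and Cx3cr1.

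The promoter stretches of 4 receptors are shown: Ccr8, Cxcr6 and Cxcr3 rose in both tumours, and Ccr4 fell in both. Each stretch is the 250 bases before the transcription start in RefSeq (build GRCm38.p6), 5′ to 3′ on the strand of the gene, and capitals mark a match to one of the motifs searched. They lie at chr9:120091883-120092132 (plus strand, Ccr8), chr9:123806227-123806476 (plus strand, Cxcr6), chrX:101734148-101734397 (minus strand, Cxcr3) and chr9:114496545-114496794 (minus strand, Ccr4). The Ccr4 stretch lies inside the Ccr4 gene of the deposited count table (chr9:114490316-114504916), which starts further upstream than the RefSeq start. The Cx3cr1 stretch (chr9:120068297-120068546) also lies inside its gene there (chr9:119901616-120069879). Most of the Ccr2 stretch (chr9:124101933-124102182), with its match given below, lies inside its gene, which starts at 124101950. The Cxcr3 gene starts at 101734269, so part of its stretch, with the marked match, lies inside it. Only the last bases of the Ccr8 and Cxcr6 stretches overlap their genes.
Ccr8: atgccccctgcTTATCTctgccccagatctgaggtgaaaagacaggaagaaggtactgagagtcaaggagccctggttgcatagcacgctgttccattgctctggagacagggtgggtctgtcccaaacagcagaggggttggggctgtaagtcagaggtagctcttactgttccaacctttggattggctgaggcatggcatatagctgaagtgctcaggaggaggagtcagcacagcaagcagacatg
Cxcr6: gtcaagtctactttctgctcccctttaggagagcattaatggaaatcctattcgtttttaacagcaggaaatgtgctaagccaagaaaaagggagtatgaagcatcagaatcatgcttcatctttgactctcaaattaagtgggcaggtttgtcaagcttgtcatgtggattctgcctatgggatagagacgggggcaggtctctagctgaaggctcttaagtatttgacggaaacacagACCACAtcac
Cxcr3: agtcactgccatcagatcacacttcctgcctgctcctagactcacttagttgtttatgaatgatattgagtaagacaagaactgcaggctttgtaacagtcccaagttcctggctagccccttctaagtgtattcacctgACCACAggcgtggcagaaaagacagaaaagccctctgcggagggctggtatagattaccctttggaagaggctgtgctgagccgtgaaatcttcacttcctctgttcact
Ccr4: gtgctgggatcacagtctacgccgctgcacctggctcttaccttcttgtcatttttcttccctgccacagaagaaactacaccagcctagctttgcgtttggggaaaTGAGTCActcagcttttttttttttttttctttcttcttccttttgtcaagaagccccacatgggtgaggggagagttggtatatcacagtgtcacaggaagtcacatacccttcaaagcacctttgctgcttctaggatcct
Of the 9 receptors, 8 had a stretch in the RefSeq table, all but Ccr7. The motifs searched, on both strands, were TGTGGT for RUNX factors, AGATAA for factors of the GATA family, TGANTCA for AP-1, AGGTGTGA for T-box factors, GTAAACA for forkhead factors and TTCNNNGAA for STAT factors, and no matches overlapped in these 8 stretches. The RUNX letters stood on the opposite strand, as ACCACA, in 4 of the 8: Ccr1, Cxcr3, Cxcr6 and Cx3cr1, where all promoters of the same length held them in 14.2% (of 27025). In Cxcr6 the match ran from base 10 to base 5 before the start, in Cx3cr1 from base 54 to 49, in Ccr1 from base 58 to 53 and in Cxcr3 from base 110 to 105. The GATA letters, read as TTATCT, stood in Ccr8 (base 239 to 234 before the start) and in Ccr2 (base 97 to 92), against 10.3% of all promoters. Ccr4 alone of the 8 held the AP-1 letters (base 143 to 137), which were in 6.87% of all promoters. None of the 8 held the T-box, forkhead or STAT letters, which 1.14%, 3.09% and 7.18% of all promoters held. Cxcr4 stood apart in base composition, with 61.2% G and C and 19 CpG pairs, where the median promoter had 52.0% and 6. These matches describe the letters and say nothing of binding.

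Sequencing gave 26224286 to 26665325 counted reads per Hepa1-6 library, 26663336 and 26585350 in the E.G7 libraries and 22665563 to 24472849 per LN library. Levels below are CPM, read counts scaled to library size after edgeR's TMM scaling, or RPKM, the same per kilobase of exon, where genes are set side by side. The edgeR fit over all 10 libraries gave a biological coefficient of variation of 13%, and the first 2 principal components, with 72% and 17.3% of the variance, separated all 3 groups. Treg markers were present in every library. Foxp3 lay at 73.8 to 97.3 CPM in Hepa1-6 libraries, at 47.1 and 53.3 CPM in E.G7 and at 94.1 to 119 CPM in LN libraries, and the sum of 8 Treg and helper T cell markers was 4786 to 4877 CPM (Hepa1-6), 4239.6 and 4397 CPM (E.G7) and 4281 to 4464 CPM in LN libraries. Of the 8, 5 were called lower and 1 higher in each tumour against LN, and the 1 was Ctla4, with 1409.5 CPM in Hepa1-6, 1261 CPM in E.G7 and 410.2 CPM in LN libraries. Markers of other cells were present too. A list of 14 macrophage and neutrophil markers summed to 3704 to 3975 CPM (Hepa1-6), 762 and 799.6 CPM (E.G7) and 26.6 to 39.0 CPM in LN libraries, where S100a9 was at 0. Sums for 10 dendritic cell markers were 8209.7 to 8668 CPM (Hepa1-6), 1536 and 1584 CPM (E.G7) and 156 to 177 CPM in LN libraries. Most of each sum was the MHC class II presentation genes Cd74, H2-Ab1 and H2-Aa, with 4909, 2145 and 1256 CPM in Hepa1-6. Between the tumours, 7 of the 10 were called higher in Hepa1-6 and 3 (Flt3, Zbtb46 and Siglech) were not called. For 10 CD8 T and NK cell markers the sums were 1191 to 1285 CPM (Hepa1-6), 405 and 417 CPM (E.G7) and 64.9 to 76.4 CPM in LN libraries, with Ncr1 at 0 in LN. Beside these, 10 hepatoma markers summed to 1989 to 2151 CPM (Hepa1-6), 126 and 141 CPM (E.G7) and 29.5 to 35.7 CPM in LN libraries. Most of the E.G7 sum was Apoe, which macrophages also make, at 128 CPM, while Alb in E.G7 was at 0.0554 CPM. Sums for 10 stroma and endothelium markers were 1018 to 1130.2 CPM (Hepa1-6), 137 and 166 CPM (E.G7) and 223 to 240.2 CPM in LN libraries, and in each tumour 9 of the 10 were called higher than in LN. The exception was Pecam1, which is also made by leukocytes and was 228 CPM of the LN sum. The 5 immature thymocyte markers summed to 64.2 to 75.4 CPM (Hepa1-6), 72.6 and 75.0 CPM (E.G7) and 17.6 to 20 CPM in LN libraries. Most of the Hepa1-6 and LN sums was Cd8b1, which is also on the CD8 T and NK cell list. Cd8b1 had 66.5 CPM in Hepa1-6, 27.1 CPM in E.G7 and 16.1 CPM in LN libraries. Most of the E.G7 sum was Dntt, with 2.84 CPM in Hepa1-6, 46.6 CPM in E.G7 and 2.30 CPM in LN libraries. The 10 B cell markers summed to 384 to 457 CPM (Hepa1-6), 647 and 652 CPM (E.G7) and 859 to 977 CPM in LN libraries, with 5 called higher and 4 lower in Hepa1-6 and 5 higher and 3 lower in E.G7 against LN. In bulk RNA, more cells of a type and more RNA per cell cannot be told apart.

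Set side by side per length, the receptors came in a different order in each group. In Hepa1-6 Treg libraries Ccr8 stood highest at 589.5 ± 34.0 RPKM (SD, n = 4), followed by Cxcr6 at 265 ± 9.71, Ccr7 at 157 ± 10, Cxcr3 at 128 ± 3.32, Ccr2 at 79.0 ± 3.27, Ccr1 at 43.9 ± 2.57 and Cxcr4 at 33.6 ± 3.08 RPKM. Ccr4 at 12.2 ± 1.21 and Cx3cr1 at 11.7 ± 0.974 RPKM were the only neighbours in that order whose libraries overlapped. In E.G7 libraries Ccr8 at 355 ± 8.29 RPKM (SD, n = 2) and Ccr7 at 338 ± 9.9 RPKM were close together, with no overlap between their libraries. Below them in E.G7 came Cxcr6 at 132 ± 4.28, Cxcr3 at 102 ± 1.82, Cxcr4 at 39.4 ± 1.93, Ccr2 at 28.5 ± 1.37, Ccr4 at 10 ± 0.524, Ccr1 at 5.82 ± 0.501 and Cx3cr1 at 2.67 ± 0.401 RPKM, and no neighbours in that order overlapped. In LN libraries Ccr7 stood far above the rest at 370 ± 22.5 RPKM (SD, n = 4), with Ccr8 next at 83.3 ± 2.82 and Cxcr3 at 40.9 ± 2.26 RPKM. Cxcr6, Ccr4 and Cxcr4 followed in LN libraries at 18.2 ± 2.12, 16.1 ± 0.856 and 15.2 ± 0.742 RPKM, and each overlapped its neighbour. Ccr2 at 4.25 ± 0.232, Ccr1 at 0.256 ± 0.0470 and Cx3cr1 at 0.0633 ± 0.0244 RPKM ended the LN order without overlap.

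Summed over the 9 genes, receptor transcripts came to 1274 to 1349.7 RPKM in Hepa1-6, 1012 and 1014 RPKM in E.G7 and 519.8 to 575 RPKM in LN libraries. Ccr8 held 44.7 ± 1.99% of that sum in Hepa1-6, 35.0 ± 0.783% in E.G7 and 15.2 ± 0.612% in LN libraries (SD, n = 4, 2 and 4). Ccr7 held 11.9 ± 0.684% in Hepa1-6, 33.4 ± 1.01% in E.G7 and 67.5 ± 0.740% in LN libraries. Per length, Ccr8 was thus the leading receptor transcript in both tumours, narrowly in E.G7, and Ccr7 in lymph nodes. The lead in E.G7 depends on exon length, which was 1175 bases for Ccr8 and 1978 bases for Ccr7. Without it, mean levels in E.G7 were 417 CPM for Ccr8 and 669 CPM for Ccr7. Cxcr6 held 20.1 ± 0.801% in Hepa1-6, 13.0 ± 0.409% in E.G7 and 3.32 ± 0.233% in LN libraries, while the share of Cxcr3 lay between 7.02% and 10.2% in all 10 libraries. With the receptors shared with myeloid cells (Ccr1, Ccr2 and Cx3cr1) left out of the sum, the share of Ccr8 was 49.7% in Hepa1-6 and 36.4% in E.G7.

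**Figure D1:**
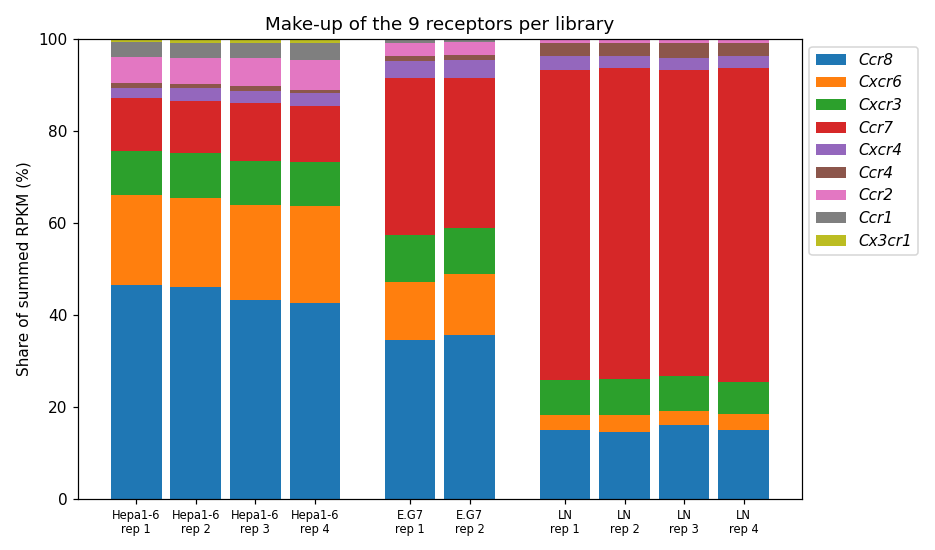
Each bar is 1 library and shows the share (%) of each of the 9 receptors in their summed RPKM, with Hepa1-6 libraries on the left, E.G7 in the middle and LN on the right. Ccr8 makes up 42.7 to 46.6% of the Hepa1-6 bars and 14.7 to 16.1% of the LN bars, and Ccr7 66.5 to 68.3% of the LN bars.

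The ratio of Ccr8 to Ccr7 RPKM within a library needs no scaling between libraries. It was 3.76 ± 0.371 in Hepa1-6 (range 3.39 to 4.09), 1.05 ± 0.0553 in E.G7 (1.01 and 1.09) and 0.226 ± 0.0112 in LN libraries (0.217 to 0.242), so the 3 groups did not overlap. On the log2 scale the difference was 4.05 between Hepa1-6 and LN (two-sided exact permutation test, p = 0.0286), 2.22 between E.G7 and LN (exact p = 0.0667) and 1.84 between Hepa1-6 and E.G7 (exact p = 0.0667). After Benjamini-Hochberg adjustment over the 3 comparisons each exact p was 0.0667, so none passed 0.05. With 15 possible splits of 4 against 2 libraries, 0.0667 is the smallest p such a comparison can give. With 70 splits of 4 against 4 libraries, 0.0286 is likewise the smallest two-sided p. All 3 comparisons were thus at their smallest p, and none could have passed 0.05 after adjustment, whatever the ratios.

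Against the LN libraries, 7 of the 9 receptors rose in Hepa1-6 Treg cells and 2, Ccr7 and Ccr4, fell, by edgeR's quasi-likelihood test with a Benjamini-Hochberg adjusted p under 0.05. Of all genes tested, 37.0% were called higher and 31.1% lower in that comparison (68.0% in all). The Hepa1-6 and LN libraries did not overlap for any of the 9 (7 higher, 2 lower), as for 61.8% of all genes (34.1% higher, 27.6% lower). In E.G7 Treg cells the same 7 rose, Ccr4 fell and Ccr7 was not called, where 32.7% of all genes were called higher and 27.2% lower (59.9% in all). Here too the libraries did not overlap for any of the 9 (7 higher, 2 lower), as for 69.2% of all genes (36.6% higher, 32.6% lower). The median log2 fold change of the 9 was 2.82 in Hepa1-6 and 2.09 in E.G7, beside 0.04 (Hepa1-6) and 0.01 (E.G7) for all genes. The comparisons of the tumours with LN share the same 4 LN libraries, so their values stand side by side below and are no independent repeats.

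**Figure D2:**
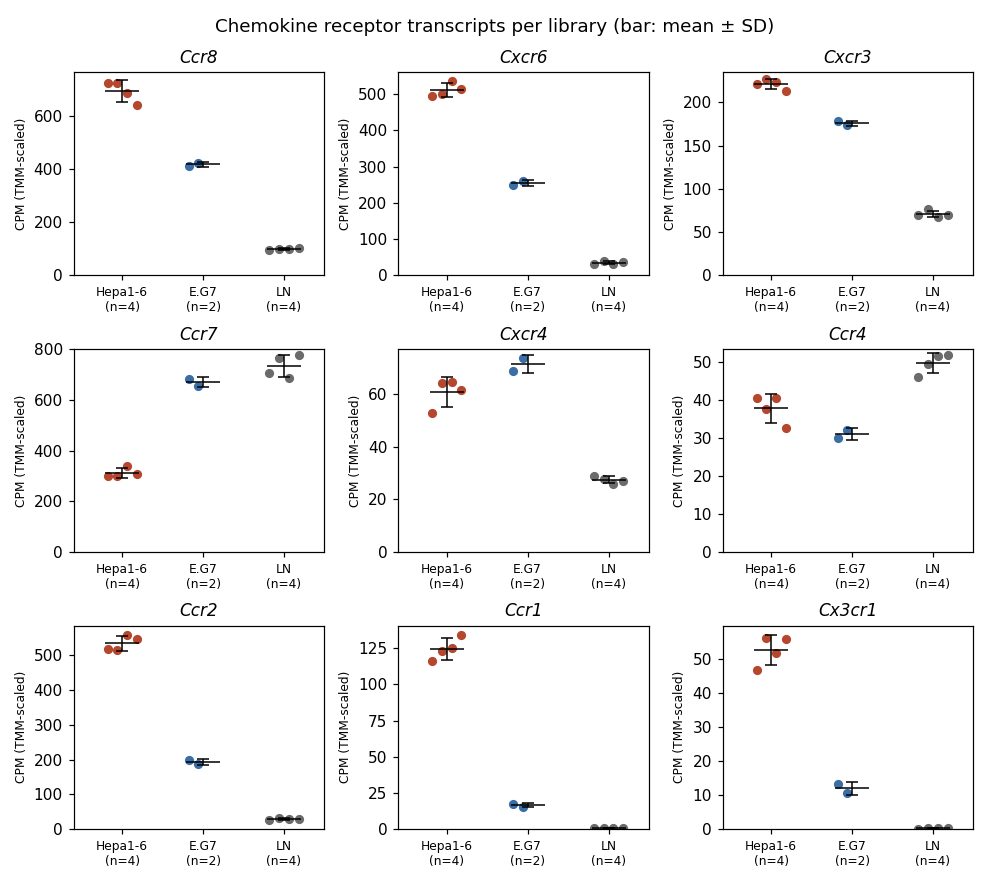
Each point is 1 library, at its level in CPM on a linear axis that starts at 0, with Hepa1-6 (n = 4) left of E.G7 (n = 2) and LN (n = 4); bars give the mean ± SD. Ccr7 and Ccr4 are lower in every Hepa1-6 library than in every LN library, and the other 7 receptors are higher in every tumour library than in every LN library.

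Ccr8, the receptor for Ccl1 and in mice also for Ccl8, is a known surface marker of tumour Treg cells. It had 723, 724, 686 and 639 CPM in the Hepa1-6 libraries, 410 and 424 CPM in the E.G7 libraries and 93.6, 98.2, 98.3 and 102 CPM in the LN libraries. Every tumour library was above every LN library, and every Hepa1-6 library above both E.G7 libraries. The log2 fold change was 2.82 ± 0.053 (SE) in Hepa1-6 against LN (7.08-fold, edgeR adjusted p = 2.34e-16) and 2.09 ± 0.059 in E.G7 against LN (4.26-fold, adjusted p = 1.16e-13).

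Cxcr6, which binds the membrane-bound chemokine Cxcl16 and marks tissue-resident T cells, had 494, 499, 536 and 515 CPM in the Hepa1-6 libraries, 249 and 260.4 CPM in the E.G7 libraries and 32.1, 40.0, 31.5 and 37.1 CPM in the LN libraries. The groups did not overlap, and their order was the same as for Ccr8. Its fold change was larger than that of Ccr8 in both tumours, at 3.86 ± 0.075 (log2, SE) in Hepa1-6 against LN (14.5-fold, edgeR adjusted p = 3.33e-16) and 2.85 ± 0.080 in E.G7 against LN (7.23-fold, adjusted p = 1.16e-13); that difference between the 2 genes was not tested.

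Cxcr3, the receptor of T helper 1-type responses for Cxcl9, Cxcl10 and Cxcl11, had 221, 227, 224 and 213 CPM in the Hepa1-6 libraries, 178 and 174 CPM in the E.G7 libraries and 70.1, 76.4, 67.2 and 69.8 CPM in the LN libraries. The groups were well apart, and the spread within each was small. Its log2 fold change was 1.64 ± 0.053 in Hepa1-6 against LN (3.12-fold, edgeR adjusted p = 1.77e-13) and 1.31 ± 0.062 in E.G7 against LN (2.48-fold, adjusted p = 4.52e-11).

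Cxcr4, the receptor for Cxcl12, which holds cells in bone marrow and stroma, had 52.6, 64.3, 64.4 and 61.5 CPM in the Hepa1-6 libraries, 68.8 and 73.7 CPM in the E.G7 libraries and 29.0, 27.9, 25.8 and 27.0 CPM in the LN libraries. Tumour and LN libraries did not overlap, and of the 7 receptors that rose it had the smallest fold in Hepa1-6. The log2 fold change was 1.14 ± 0.079 in Hepa1-6 against LN (2.21-fold, edgeR adjusted p = 2.27e-09) and 1.38 ± 0.091 in E.G7 against LN (2.60-fold, adjusted p = 2.77e-09). It was the only one of the 7 with a higher mean in E.G7 than in Hepa1-6.

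Ccr7, the lymph node homing receptor, had 298, 299, 340.3 and 309 CPM in the Hepa1-6 libraries, 683 and 655 CPM in the E.G7 libraries and 705, 763, 684 and 776 CPM in the LN libraries. The Hepa1-6 libraries were all far below the rest, and the E.G7 libraries lay just under the lowest LN library without overlap. In Hepa1-6 against LN it fell by 1.23 on the log2 scale (SE 0.056, 2.35-fold lower, edgeR adjusted p = 1.12e-11). In E.G7 against LN the log2 fold change was -0.13 ± 0.067 (edgeR adjusted p = 0.108), not called. That value depends on the scaling: with libraries scaled so that pan T cell genes were level it was 0.15 (adjusted p = 0.0381), with upper-quartile scaling -0.25 (adjusted p = 0.00551) and without LN replicate 3 -0.17 (adjusted p = 0.0435).

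Ccr4, which binds Ccl17 and Ccl22, had 40.4, 37.6, 40.5 and 32.5 CPM in the Hepa1-6 libraries, 29.9 and 32.2 CPM in the E.G7 libraries and 46.1, 49.3, 51.6 and 51.7 CPM in the LN libraries. Every tumour library was below every LN library, by a small margin next to the other receptors. It fell by 0.40 on the log2 scale in Hepa1-6 against LN (SE 0.082, 1.32-fold lower, edgeR adjusted p = 0.000527) and by 0.68 in E.G7 against LN (SE 0.10, 1.60-fold lower, adjusted p = 3.59e-05). With libraries scaled to pan T cell genes the Hepa1-6 value was -0.15 (edgeR adjusted p = 0.125) and not called.

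The 3 receptors shared with myeloid cells had the largest fold changes of the 9 in Hepa1-6, and Ccr1 and Cx3cr1 also in E.G7. Ccr2, the receptor for Ccl2, had 517, 514, 559 and 546 CPM in the Hepa1-6 libraries, 199 and 186 CPM in the E.G7 libraries and 27.4, 31.0, 28.0 and 28.7 CPM in the LN libraries. It rose by 4.21 ± 0.059 (log2, SE) in Hepa1-6 (18.6-fold, edgeR adjusted p = 9.02e-18) and by 2.75 ± 0.063 in E.G7 (6.71-fold, adjusted p = 1.18e-14). It was clearly present in LN libraries, with 692 to 803 reads each.

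Ccr1, a receptor for Ccl3 and Ccl5, had 116, 123, 125 and 134 CPM in the Hepa1-6 libraries, 17.5 and 15.5 CPM in the E.G7 libraries and 0.554, 0.694, 0.803 and 0.855 CPM in the LN libraries. The LN values rest on 14 to 22 reads per library and the groups are far apart. Its log2 fold change was 7.41 ± 0.11 in Hepa1-6 (170-fold, edgeR adjusted p = 2.68e-17) and 4.50 ± 0.13 in E.G7 (22.6-fold, adjusted p = 1.99e-13).

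Cx3cr1, the receptor for the membrane-anchored chemokine Cx3cl1, had 46.9, 56.3, 51.9 and 55.9 CPM in the Hepa1-6 libraries, 13.3 and 10.7 CPM in the E.G7 libraries and 0.158, 0.347, 0.402 and 0.233 CPM in the LN libraries. With 4 to 10 reads per LN library it was the rarest receptor there, and it did not overlap between groups. The log2 fold change was 7.51 ± 0.18 in Hepa1-6 (182-fold, edgeR adjusted p = 4.22e-15) and 5.38 ± 0.21 in E.G7 (41.5-fold, adjusted p = 4.05e-12). Its exons overlap Gm33858 on the other strand, which had 3.02 to 4.17 CPM (Hepa1-6), 1.73 and 1.78 CPM (E.G7) and 0.0386 to 0.402 CPM in LN libraries, and the sources used here do not say whether counting used strand. On the log2(FPKM + 1) scale of the deposited FPKM values the folds of Ccr1 and Cx3cr1 were smaller, at 5.15 and 3.57 in Hepa1-6 and 2.43 and 1.77 in E.G7, since the pseudocount is large beside their LN levels.

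**Figure D3:**
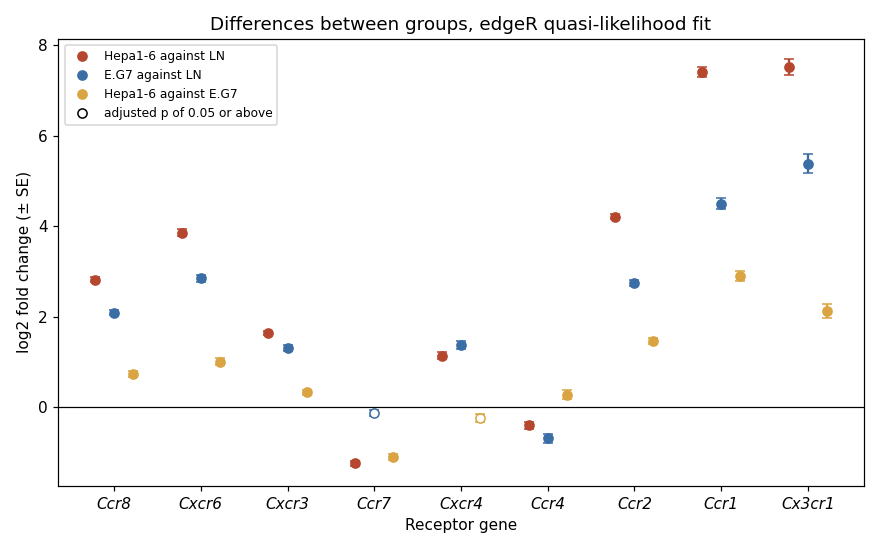
Each point is the log2 fold change (± SE, edgeR) of a receptor in 1 of the 3 comparisons, given by colour, and open points did not pass an adjusted p of 0.05. Ccr1 and Cx3cr1 stand highest in both tumours against LN, at 7.41 and 7.51 in Hepa1-6, and Ccr7 is the only receptor well below 0 in Hepa1-6 against both other groups.

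Macrophage and neutrophil markers moved with these receptors. All 14 of the list were called higher in Hepa1-6 against LN, in E.G7 against LN and in Hepa1-6 against E.G7, with medians of 7.92, 4.84 and 3.14 (log2). Mean summed levels of the list differed 112-fold between Hepa1-6 and LN and 22.7-fold between E.G7 and LN. Mean CPM of Ccr1 differed 171-fold in Hepa1-6 and 22.7-fold in E.G7 from LN, that of Cx3cr1 185-fold in Hepa1-6 and 42.2-fold in E.G7, and that of Ccr2 18.6-fold in Hepa1-6 and 6.71-fold in E.G7. Set against the summed marker level of the same library, Ccr1 stood at 3.25% in Hepa1-6, 2.12% in E.G7 and 2.11% in LN libraries, and Cx3cr1 at 1.38% in Hepa1-6, 1.54% in E.G7 and 0.820% in LN libraries. Ccr2 stood at 13.9% in Hepa1-6, 24.7% in E.G7 and 85.5% in LN libraries. The level of Ccr2 beside these markers was thus highest in the LN libraries, where the markers were lowest. The dendritic cell markers were called higher 10 of 10 in both tumours against LN, and the CD8 T and NK cell markers 9 of 10 in Hepa1-6 and 8 of 10 in E.G7. The part of these cells in the receptor levels was not tested.

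**Figure D4:**
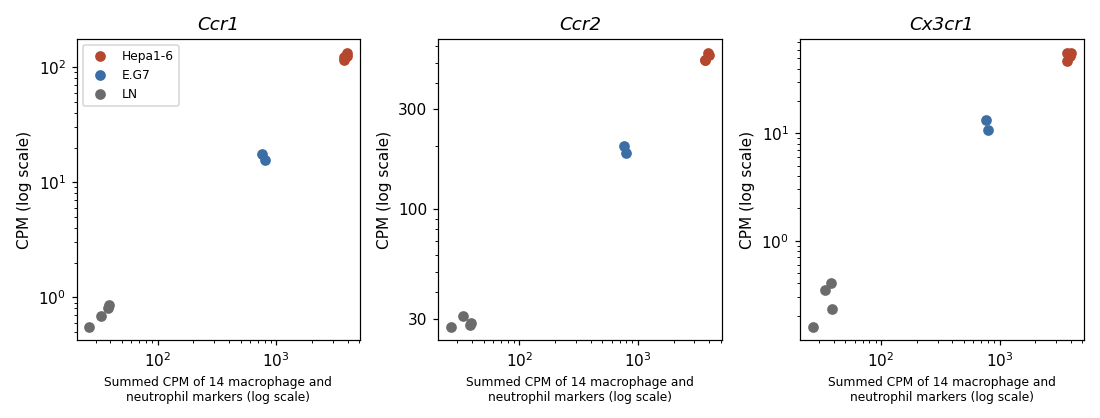
Each point is 1 library, with the summed CPM of 14 macrophage and neutrophil markers on the x axis and the CPM of Ccr1, Ccr2 or Cx3cr1 on the y axis, both on log scales. The Hepa1-6 libraries sit at 3704 to 3975 CPM of markers and the LN libraries at 26.6 to 39.0 CPM, with the E.G7 libraries between them in all 3 panels.

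Between the tumours, 7 of the 9 receptors were higher in Hepa1-6 than in E.G7 Treg cells, Ccr7 was lower and Cxcr4 was not called, where 26.1% of all genes were called higher and 19.6% lower (45.6% in all). The libraries of the tumours did not overlap for any of the 9 (7 higher, 2 lower), as for 58.0% of all genes (31.9% higher, 26.2% lower). The median log2 fold change of the 9 was 0.73, beside 0.06 for all genes. This comparison tests directly whether the receptors differ more from LN in one tumour than in the other. Ccr1 differed most, with 116 to 134 CPM in Hepa1-6 against 17.5 and 15.5 CPM in E.G7 (log2 2.91 ± 0.11, 7.54-fold, edgeR adjusted p = 4.73e-12). Cx3cr1 was 4.39-fold higher (log2 2.13 ± 0.15, edgeR adjusted p = 9.43e-09) and Ccr2 2.77-fold higher (1.47 ± 0.067, adjusted p = 6.98e-11). The summed macrophage and neutrophil markers were 4.90-fold higher in Hepa1-6 than in E.G7.

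The differences of Cxcr6, Ccr8 and Cxcr3 between the tumours were smaller. Cxcr6 was 2.01-fold higher in Hepa1-6 than in E.G7 (log2 1.01 ± 0.084, edgeR adjusted p = 7.85e-08), Ccr8 1.66-fold (0.73 ± 0.062, adjusted p = 9.54e-08) and Cxcr3 1.26-fold (0.33 ± 0.064, adjusted p = 0.000472). Of the 10 CD8 T and NK cell markers, 8 were also called higher in Hepa1-6 than in E.G7 and 2 were not called. The part of such cells in these receptor levels was not tested. Ccr7 went the other way, 2.15-fold lower in Hepa1-6 (log2 -1.10 ± 0.065, edgeR adjusted p = 1.31e-09). Ccr4 was 1.22-fold higher in Hepa1-6 (log2 0.28 ± 0.10, edgeR adjusted p = 0.0338), a call that was lost when any of Hepa1-6 replicates 1, 2 and 3 or either E.G7 library was left out (0.22 to 0.33, adjusted p = 0.0532 to 0.235). Cxcr4 had a log2 fold change of -0.23 ± 0.092 (edgeR adjusted p = 0.0517) and was called lower under 12 of 18 other settings. Foxp3 itself averaged 82.0 ± 11 CPM (Hepa1-6) and 50.2 ± 4.34 CPM (E.G7) and was 1.63-fold higher in Hepa1-6 (edgeR adjusted p = 0.000158); its part in the receptor levels was not tested.

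On mouse chromosome 9 lie 6 of the 9 receptors (mm10, coordinates as in the deposited count table), in 3 places. Ccr4 lies at chr9:114490316-114504916. Cx3cr1 (chr9:119901616-120069879, minus strand) and Ccr8 (chr9:120092114-120094906, plus strand) are direct neighbours, 22234 bases apart. Their levels were far apart per length, with Ccr8 at 589.5 RPKM in Hepa1-6 and 83.3 RPKM in LN libraries and Cx3cr1 at 11.7 RPKM in Hepa1-6 and 0.0633 RPKM in LN libraries. The last place runs from Ccr9 over Cxcr6 (chr9:123806475-123811760), Xcr1, Ccr1 (chr9:123962124-123968692) and Ccr3 to Ccr2 (chr9:124101950-124113557). Ccr7 lies at chr11:99144196-99155077, Cxcr3 at chrX:101731535-101734269 and Cxcr4 at chr1:128588199-128592293.

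Along that last place, every receptor but Ccr9 was called higher in both tumours than in LN and higher in Hepa1-6 than in E.G7. Of the 50-base windows of Ccr2 transcripts 1.91% also occur in another gene, so few reads could be shared. Ccr3, known from eosinophils, had 16.1 CPM in Hepa1-6, 4.23 CPM in E.G7 and 1.76 CPM in LN libraries, and Xcr1, a receptor of cross-presenting dendritic cells, had 9.17 CPM in Hepa1-6, 5.38 CPM in E.G7 and 3.30 CPM in LN libraries. Ccr9, the gut homing receptor for Ccl25, departed from this order with 15.4 CPM in Hepa1-6, 93.4 CPM in E.G7 and 14.2 CPM in LN libraries (log2 2.72 ± 0.095 in E.G7 against LN, edgeR adjusted p = 1.37e-12; 0.12 ± 0.086 in Hepa1-6, adjusted p = 0.216). Exons of Ccr9 overlap those of Slc6a20a and 2 other annotated genes. Dntt, a gene of immature lymphocytes, had 2.84 CPM in Hepa1-6, 46.6 CPM in E.G7 and 2.30 CPM in LN libraries; its bearing on Ccr9 was not tested.

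**Figure D5:**
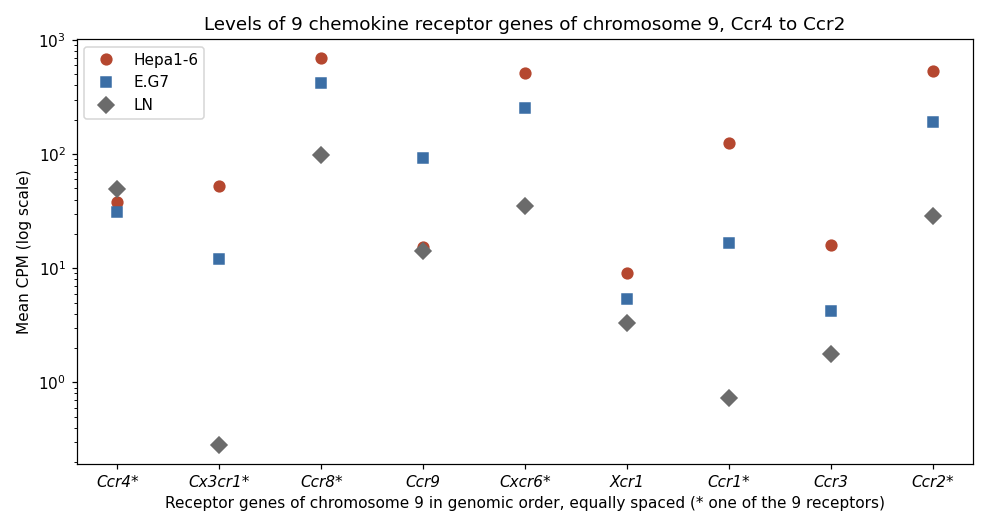
Mean CPM (log axis) in Hepa1-6, E.G7 and LN libraries of 9 receptor genes of chromosome 9 in genomic order, equally spaced, from Ccr4 to Ccr2 and without Ackr2; asterisks mark 6 of the 9 receptors described here. From Cxcr6 to Ccr2 the groups keep one order, with Ccr3 at 16.1 CPM in Hepa1-6, 4.23 CPM in E.G7 and 1.76 CPM in LN, whereas Ccr9 is highest in E.G7 at 93.4 CPM and Ccr4 in LN at 49.7 CPM.

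Of 14 other chemokine receptors, 12 passed the filter on low counts (not Cxcr1 and Ackr2). Among the 12, 6 were higher and 4 lower in Hepa1-6 against LN, 7 higher and 3 lower in E.G7 against LN, and 6 higher and 6 lower in Hepa1-6 against E.G7. In the same order of comparisons, 37.0%, 32.7% and 26.1% of all genes tested were called higher, and 31.1%, 27.2% and 19.6% lower. The best expressed of these 12 receptors per length were Ccrl2, Ccr6, Cxcr5 and Ccr9. Ccrl2, an atypical receptor that presents chemerin, had 214 ± 11.7 CPM in Hepa1-6, 141 ± 3.21 CPM in E.G7 and 14 ± 2.47 CPM in LN libraries. Ccr6, the receptor for Ccl20, fell to 12.5 ± 2.67 CPM (Hepa1-6) and 31.1 ± 0.286 CPM (E.G7), against 88.3 ± 2.20 CPM in LN libraries (7.09-fold lower in Hepa1-6, edgeR adjusted p = 4.60e-12; 2.84-fold lower in E.G7, adjusted p = 1.59e-07). Cxcr5, which leads to B cell follicles, fell to 10.9 ± 1.08 CPM (Hepa1-6) and 23.2 ± 1.26 CPM (E.G7), against 74.3 ± 5.56 CPM in LN libraries. Its exons overlap those of Bcl9l on the other strand. Like Ccr7, both Ccr6 and Cxcr5 were lowest in Hepa1-6.

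Genes of the chemokines that bind the 9 receptors were measured in the same libraries. Of 18, 16 passed the filter, and Ccl19 and Ccl21a, the ligands of Ccr7, did not. All 16 were higher in Hepa1-6 against LN, where 37.0% of all genes tested were called higher. In E.G7 against LN and in Hepa1-6 against E.G7, 15 were higher, beside 32.7% and 26.1% of all genes. The exception against LN was Cxcl12, the ligand of Cxcr4, at 0.762 CPM in Hepa1-6, 0.129 CPM in E.G7 and 0.0601 CPM in LN libraries, and between the tumours it was Ccl22, whose Hepa1-6 mean was 19.4 CPM and whose E.G7 mean was 16.9 CPM. The best expressed per length were Ccl4, Ccl5, Ccl3 and Ccl2. Ccl4, an inflammatory chemokine, had 387 ± 28.3 CPM in Hepa1-6, 58.7 ± 3.26 CPM in E.G7 and 1.15 ± 0.468 CPM in LN libraries. Ccl5, which binds Ccr1, had 369 ± 21.2 CPM in Hepa1-6, 117 ± 9.67 CPM in E.G7 and 3.59 ± 0.398 CPM in LN libraries, and Ccl2, the ligand of Ccr2, had 165 ± 6.56 CPM in Hepa1-6, 7.28 ± 0.154 CPM in E.G7 and 0.0296 ± 0.0197 CPM in LN libraries. These levels were thus in the same order as the summed markers of macrophages and neutrophils, dendritic cells, CD8 T and NK cells, and hepatoma. Cxcl16, the ligand of Cxcr6, had 113 CPM in Hepa1-6, 19.5 CPM in E.G7 and 1.21 CPM in LN libraries, and Ccl8, a ligand of Ccr8, 61.4 CPM in Hepa1-6, 3.20 CPM in E.G7 and 0.354 CPM in LN libraries. The parts of such other cells in the ligand levels cannot be told apart in bulk RNA and were not tested.

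Genes that carry the receptor signal changed in both directions, as did the genes tested as a whole. Of 14 (G protein subunits, PI3K gamma, Dock2 and Rac2 among them), 6 were higher and 6 lower in Hepa1-6 against LN, and 5 higher and 7 lower in E.G7 against LN, with medians of 0.04 (Hepa1-6) and -0.20 (E.G7) on the log2 scale. Over all genes tested, 37.0% were called higher and 31.1% lower in Hepa1-6, and 32.7% and 27.2% in E.G7. Their medians were 0.04 (Hepa1-6) and 0.01 (E.G7). Rasgrp2, which activates the integrin regulator Rap1, had 35.5 ± 3.20 CPM in Hepa1-6, 64.1 ± 1.56 CPM in E.G7 and 153 ± 8.15 CPM in LN libraries (4.29-fold lower in Hepa1-6, edgeR adjusted p = 3.24e-13; 2.38-fold lower in E.G7, adjusted p = 5.74e-09). Rhoh, a GTPase of blood cells, was 2.26-fold lower in Hepa1-6 and 2.91-fold lower in E.G7 than in LN, and Pik3r5, a regulatory subunit of PI3K gamma, was 1.52-fold lower in Hepa1-6 and 2.23-fold lower in E.G7. Gnb2, a G protein beta subunit whose exons overlap those of Epo on the same strand, varied widely, with 52.4 to 129 CPM (Hepa1-6), 46.9 and 70.2 CPM (E.G7) and 21.8 to 35.6 CPM in LN libraries. It was 2.91-fold higher in Hepa1-6 than in LN (edgeR adjusted p = 0.00231) and 2.01-fold higher in E.G7 (adjusted p = 0.0426, and 0.0602 with upper-quartile scaling). Rac2, the GTPase of leukocyte migration, had 1409 CPM in Hepa1-6, 1356 CPM in E.G7 and 1696 CPM in LN libraries, and Dock2, its activator, had 714 CPM in Hepa1-6, 556 CPM in E.G7 and 915 CPM in LN libraries; both were called lower in both tumours. With libraries scaled to pan T cell genes, Rac2 was called in neither tumour (-0.02 in Hepa1-6 and -0.04 in E.G7, log2) nor Dock2 in Hepa1-6 (-0.12), and the list had 8 higher and 3 lower in Hepa1-6. Gnb1, another beta subunit, was 1.33-fold higher in Hepa1-6 and 1.28-fold higher in E.G7 than in LN, and Gnai3, an inhibitory G alpha subunit, was 1.06-fold higher in Hepa1-6 (edgeR adjusted p = 0.149, not called) and 1.26-fold higher in E.G7.

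Among 13 genes that damp receptor signals (RGS proteins, receptor kinases and arrestins), 6 were higher and 6 lower in Hepa1-6 against LN, and 5 higher and 7 lower in E.G7 against LN. The shares over all genes tested were 37.0% higher and 31.1% lower in Hepa1-6, and 32.7% and 27.2% in E.G7. The 3 genes of this list best expressed per length, all RGS proteins that switch off G alpha subunits, were among those that rose. Rgs2 had 931 ± 49.2 CPM in Hepa1-6, 861 ± 33.3 CPM in E.G7 and 146 ± 1.98 CPM in LN libraries. Rgs1, a brake on T cell migration, had 1402 ± 47.5 CPM in Hepa1-6, 698 ± 26.7 CPM in E.G7 and 595 ± 32.3 CPM in LN libraries, and its E.G7 call was lost with upper-quartile scaling (log2 0.11, edgeR adjusted p = 0.0856). Rgs16 had 539 ± 17.4 CPM in Hepa1-6, 242 ± 14.2 CPM in E.G7 and 63.4 ± 2.26 CPM in LN libraries. Rgs19 fell in both tumours, with 96.1 ± 6.31 CPM in Hepa1-6, 90.5 ± 3.62 CPM in E.G7 and 144 ± 4.96 CPM in LN libraries.

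Of 7 genes of lymph node entry and exit, 3 were higher and 4 lower in Hepa1-6 against LN, and 1 higher and 5 lower in E.G7 against LN. Beside them, 37.0% of all genes tested were called higher and 31.1% lower in Hepa1-6, and 32.7% and 27.2% in E.G7. S1pr1, the sphingosine-1-phosphate receptor for exit into lymph, fell to 122 ± 5.20 CPM (Hepa1-6) and 192 ± 13.3 CPM (E.G7), against 557 ± 16.8 CPM in LN libraries. S1pr4, another receptor for sphingosine-1-phosphate, fell to 149 ± 7.79 CPM (Hepa1-6) and 135 ± 0.156 CPM (E.G7), against 273 ± 8.81 CPM in LN libraries (1.83-fold lower in Hepa1-6, edgeR adjusted p = 2.93e-10; 2.02-fold lower in E.G7, adjusted p = 1.68e-09). Ccr7, the homing receptor, was itself not called in E.G7. Itgal, a subunit of the integrin LFA-1, was 1.44-fold lower in each tumour, and Itgb2, its partner subunit, was 1.35-fold higher in Hepa1-6 and 1.32-fold lower in E.G7 than in LN, the E.G7 value with no call under pan T cell scaling (log2 -0.12, edgeR adjusted p = 0.0886).

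For each receptor, the genes with the most similar profile over the 10 libraries were found among 12388 genes with a mean of at least 1 CPM, as the smallest root mean square difference of centred log2 CPM. The 10 libraries form 3 groups, so likeness mostly repeats the group differences. Nearest to Ccr8 were Pvrig (0.10) and Tnfrsf9 (0.11), which encode an inhibitory receptor and the costimulatory receptor 4-1BB, and Tnfrsf9 had 1555 CPM in Hepa1-6, 831 CPM in E.G7 and 205 CPM in LN libraries. Nearest to Cxcr6 were Grn (0.13) and Hilpda (0.14), and to Cxcr3 Gpi1 (0.061) and Junb (0.063). Ccr2 was nearest to Nkg7 (0.075), a granule gene of cytotoxic lymphocytes, and Fgl2 (0.11), and Ccr1 to Sirpb1c and Trem2 (0.18 each), the second a receptor of macrophages. Cx3cr1 was nearest to Plek (0.25) and Zeb2 (0.30), Ccr7 to Tspyl2 (0.098) and Dcp1b (0.11), Ccr4 to Zfyve27 (0.071) and Pcgf5 (0.072), and Cxcr4 to Mid1ip1 (0.087) and Lap3 (0.099).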

How the data were processed

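Bulk RNA-seq libraries of sorted mouse Treg cells were sequenced on a BGISEQ-500, per the labels' protocols. The authors deposited 1 table of raw read counts per gene and, per library, FPKM values normalized for length and depth. The submitters' processing notes name HISAT2, featureCounts, Subread, RSEM and DESeq2 and the build mm10, with no versions. Whether counting used strand is not stated there.

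Counts were tested with edgeR 4.0.16 in R 4.3.3 (filterByExpr, TMM, robust quasi-likelihood fit over all 10 libraries, a term per group), with Benjamini-Hochberg adjustment over all 20068 genes tested and a threshold of 0.05. RPKM used the exon lengths of the count table. Log2 CPM for profile likeness used a prior count of 2. The procedure was also run on simulated counts, with the same biological variation for every gene and few changed genes. That run cannot give error rates for these data, where 45.6% to 68.0% of genes were called. Intervals between libraries cover their spread only, and no 2 libraries of a group agreed within sampling noise (chi-square per degree of freedom 7.407 to 18.85). The 9 receptors, the gene lists, the ratio and the comparisons were chosen with earlier results of these data known. Some genes of the lists of other receptors and of lymph node entry and exit are not reported here and not counted. Genes named beyond the 9 receptors are the 4 of each list with the highest mean RPKM, the 2 most similar to each receptor and the receptor genes of chromosome 9; Ccl8, Cxcl16, Cxcl12, Ccl22, Rasgrp2, Rhoh, Pik3r5, Gnb2 and the cell type markers given by name were named after their values were seen. Alternatives were other scalings, filters, limma 3.58.1, DESeq2 1.42.0, the FPKM values as log2(FPKM + 1) or log2(FPKM + 0.1), a replicate block and leaving out each library.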

Additional observations from a re-analysis of the deposited data

Results flagged for a closer look

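For 8 of the 9 receptors the difference from LN was not the same in the tumours, by the direct edgeR test of Hepa1-6 against E.G7 (adjusted p under 0.05). That test called 45.6% of all genes tested. The difference of the log2 fold changes, Hepa1-6 minus E.G7, was 2.91 for Ccr1, 2.13 for Cx3cr1, 1.47 for Ccr2, 1.01 for Cxcr6, 0.73 for Ccr8, 0.33 for Cxcr3, 0.28 for Ccr4 and -1.10 for Ccr7. The E.G7 group has 2 libraries and was sorted at day 21, against day 23 for Hepa1-6. In the 18 sets of 4 libraries (9 receptors in Hepa1-6 and in LN), no library stood far from the other 3.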

How the results depend on the processing

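The counts of receptors called stayed within 1.5 times of the reported ones under every alternative run, and no receptor reversed against LN except Ccr7 in E.G7, which was 0.15 with libraries scaled to pan T cell genes. Ccr7 in E.G7 was called lower with a minimum of 10 CPM (-0.21, adjusted p = 0.00812). That minimum left 7371, 7022 and 5738 of all genes called in Hepa1-6 against LN, E.G7 against LN and Hepa1-6 against E.G7, with fewer genes tested. The FPKM tests, which also change the values and the model, called 8871 (pseudocount 1) and 8841 (0.1) in Hepa1-6 against LN; the cause was not tested. Pan T cell scaling shifted the median of all genes by 0.24 in Hepa1-6 and 0.28 in E.G7 against LN, upper-quartile scaling by -0.17 in Hepa1-6; of the genes called, 68.1%, 69.3% and 45.0% were then higher, against 54.3% (Hepa1-6) and 54.6% (E.G7). The share of Ccr8 without Ccr1, Ccr2 and Cx3cr1 was 49.7% in Hepa1-6 and 36.4% in E.G7. Same-numbered libraries did not deviate together (correlations -0.049 to 0.0287), so no pairing by number was seen. So few libraries per group cannot exclude a pairing. With a replicate block 13390, 11099 and 8369 genes and 9, 8 and 7 receptors were called, and Ccr4 in Hepa1-6 against E.G7 had an edgeR adjusted p of 0.0773. Ccr4 between the tumours was not called under 10 of 18 alternatives (0.21 to 0.35, adjusted p = 0.00559 to 0.235), and Cxcr4 was called under 12 of 18 (-0.31 to -0.17, adjusted p = 0.0153 to 0.285); the causes were not tested. E.G7 rests on 2 libraries, and the LN levels of Ccr1 and Cx3cr1 on few reads.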
